A study of Mus musculus with 7 samples.

Results

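The lysyl oxidase family is the set of copper-dependent amine oxidases that cross-link collagen and elastin, encoded in the mouse by Lox, Loxl1, Loxl2, Loxl3 and Loxl4. Members were found by gene symbol in the platform annotation of the arrays, and a gene with more than 1 probe set was read from the one with the highest mean. Of 5 genes sought, 4 were measured in this way, out of 16819 genes in all. The probe set that lists Loxl2 also lists another gene, so Loxl2 was not analysed here. The family was chosen by the measured difference of Loxl4, which was much higher after Cre than in the controls. Its values against the control livers are therefore a description without a test, and the same holds for the other members in those comparisons.

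The livers came from Dicer1 fl/fl male mice, in which both copies of the microRNA-processing gene Dicer1 are flanked by loxP sites, of mixed strain (129S4 with C57BL/6). The control group was taken at 0 weeks (3 arrays), and the other groups were taken 2 weeks (2 arrays) and 4 weeks (2 arrays) after AAV8-Ttr-Cre, injected at 8 to 10 weeks of age. In this adeno-associated virus the promoter of the transthyretin gene, Ttr, drives Cre. That promoter works in hepatocytes, so other liver cells should keep Dicer1. All mice were fasted for 4 hours, whole liver was extracted, and no array came from mice given a virus without Cre or from control mice at the later times, so virus, Cre, elapsed time and loss of Dicer1 cannot be told apart.

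Values are log2 signals, and a difference of 1 is a 2-fold change. The median signal lay between 7.07 and 7.09 on all 7 arrays. For the targeted gene, Dicer1, the control signals were 8.73, 8.71 and 8.58, those at 2 weeks 8.03 and 7.79, and those at 4 weeks 7.97 and 8.05, so each array after Cre lay below the controls. The main component of variation, with 62% of the variance, placed 2 week replicate 1 closest to the controls and 2 week replicate 2 farthest from them. The hepatocyte gene for albumin, Alb, read 14.46 to 14.52 on the 7 arrays, where the highest value of any probe set was 14.72. In bulk tissue, fewer cells of a type and less RNA per cell cannot be told apart.

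Lysyl oxidases are secreted enzymes that oxidise the side chains of lysine and hydroxylysine in collagens and elastin. The aldehydes so formed react with neighbouring chains, and the resulting cross-links make fibres stiff and hard to degrade. Lox and Loxl1 carry propeptides that are removed outside the cell, while Loxl2, Loxl3 and Loxl4 carry scavenger receptor cysteine-rich domains. In fibrotic liver the family is studied for the cross-linking of scar collagen, which is made mainly by stellate cells and portal fibroblasts.

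The promoter of Loxl4 is shown because this gene carried the difference for which the family was chosen. RefSeq's promoter table (GRCm38.p6) held 1 of the measured members, Loxl4, on chromosome 19 at chr19:42612757-42613056, minus strand. The window of 300 bases runs from 250 bases before to 50 bases after the annotated start of the gene, and it is written along the gene's own strand. Capitals mark the GC boxes (GGGCGG) and 1 run of ATAAAAA.
Loxl4: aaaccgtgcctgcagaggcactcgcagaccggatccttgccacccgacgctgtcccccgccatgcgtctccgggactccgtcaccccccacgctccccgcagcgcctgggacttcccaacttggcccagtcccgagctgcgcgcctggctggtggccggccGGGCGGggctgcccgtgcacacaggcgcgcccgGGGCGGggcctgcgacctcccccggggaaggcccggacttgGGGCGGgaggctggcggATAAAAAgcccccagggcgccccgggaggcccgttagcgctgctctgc

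The window was 75% G and C, against a median of 52.7% over the 32851 promoters of the table. GGGCGG, searched on both strands, matched 3 times, all on the gene's strand, with starts at -89, -56 and -15 relative to the annotated start. It was found in 35.7% of all promoters. ATAAAAA, picked after the sequence was read and searched on both strands, matched once, at 3 bases into the annotated transcript, and was found in 6.86% of promoters. TATAAA (13.6% of promoters), the AP-1 element TGANTCA (7.81%) and the E-box CACGTG (7.15%), each searched on both strands, had no match in these letters.

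Loxl4 was higher on every array after Cre than on every control array. It read 6.24, 6.43 and 6.25 in control livers, 8.50 and 9.54 at 2 weeks, then 8.79 and 9.05 at 4 weeks. The lowest array after Cre, 2 week replicate 1, lay 2.06 log2 units above the highest control. The group means were 6.31 ± 0.11 in controls (SD, n = 3), 9.02 ± 0.74 at 2 weeks and 8.92 ± 0.19 at 4 weeks (SD, n = 2 each).

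At 2 weeks the mean of Loxl4 was 6.54-fold that of the controls (log2 difference 2.71, standard error SE 0.30), and at 4 weeks 6.09-fold (2.61, SE 0.30). Both differences are set against the same 3 control arrays. Ranked by the size of the rise, Loxl4 was number 3 of the 16819 genes at 2 weeks and number 8 at 4 weeks. The 2 week arrays differed more from each other than the 4 week arrays did: replicate 1 was 4.55-fold and replicate 2 was 9.40-fold above the control mean, against 5.56-fold and 6.69-fold for the 4 week arrays.

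**Figure D1:**
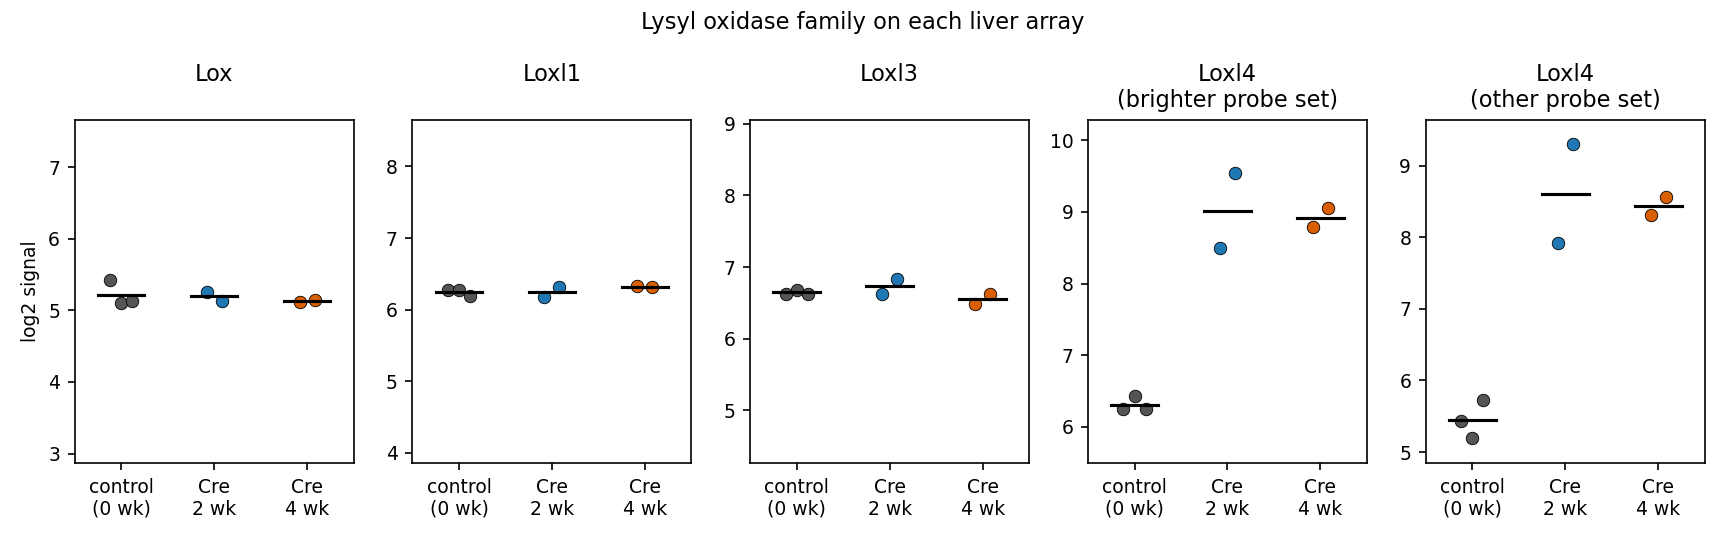
log2 signal (vertical axis, 4.8 units in each panel) of the measured family members by group (control at 0 weeks, then 2 and 4 weeks after Cre), 1 point per array, with bars at the group means (n = 3, 2 and 2). Loxl4 lies at 8.50 or above on each array after Cre by its brighter probe set and at 6.43 or below on the controls, while Lox, Loxl1 and Loxl3 stay within 0.34 log2 units across all 7 arrays.

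A second probe set for Loxl4 showed the same separation. It read 5.43, 5.19 and 5.73 in control livers, 7.92 and 9.30 at 2 weeks, then 8.31 and 8.57 at 4 weeks. No array after Cre overlapped with a control, and the gap between the highest control and 2 week replicate 1 was 2.19 log2 units. Its differences were 3.16 at 2 weeks (8.93-fold) and 2.99 at 4 weeks (7.92-fold) on the deposited values. Its control signals lay close to the dim range of Lox (5.10 to 5.43), and whether they were above background is unknown, so these folds are not ranked against those of the brighter probe set. Whether the control signals of the brighter probe set (6.24 to 6.43) were above background is unknown too, since no detection calls were used. With the mean of both probe sets the differences were 2.93 at 2 weeks and 2.80 at 4 weeks. Both probe sets put the arrays after Cre in 1 order, from 2 week replicate 1 through 4 week replicates 1 and 2 to 2 week replicate 2. They come from the same arrays and are not independent replicates.

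Lox, the founding member, which oxidises fibrillar collagen and elastin, did not separate the groups. It read 5.43, 5.10 and 5.13 in control livers, 5.26 and 5.13 at 2 weeks, then 5.12 and 5.15 at 4 weeks. The highest value belonged to a control array, and the groups overlapped at both times. Its difference from control was -0.03 at 2 weeks (SE 0.11) and -0.09 at 4 weeks (SE 0.11). Of all genes, 3.34% had a lower mean signal than Lox. Probe sets differ in brightness for reasons other than RNA level, and no detection calls were used here, so whether Lox was above background is unknown.

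Loxl1, which is needed for the upkeep of elastic fibres, read 6.27, 6.27 and 6.19 in control livers, 6.18 and 6.32 at 2 weeks, then 6.33 and 6.31 at 4 weeks. The 2 week arrays overlapped with the controls, and the 4 week arrays lay just above all of them. The difference was 0.00 at 2 weeks (SE 0.06) and 0.07 at 4 weeks (SE 0.06), so the separation at 4 weeks amounted to a 1.05-fold ratio of the means.

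Loxl3, an oxidase known from mouse mutants with defects of the palate and spine, read 6.63, 6.68 and 6.63 in control livers, 6.63 and 6.83 at 2 weeks, then 6.49 and 6.63 at 4 weeks. All groups overlapped. The differences were 0.08 at 2 weeks and -0.09 at 4 weeks (SE 0.08 for both). The sign at 2 weeks rested on replicate 2, since without it the difference was -0.02.

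Counted over the family, 1 of 4 measured members, Loxl4, had an adjusted p under 0.05 in limma at 2 weeks, where 5.93% of all genes did, and 1 of 4 at 4 weeks, where 9.77% did. The 2 groups did not overlap for 1 of 4 members at 2 weeks (34.9% of all genes, 17.3% with all arrays after Cre above the controls) and for 2 of 4, Loxl1 and Loxl4, at 4 weeks (39.8% of all genes, 21.6% with all arrays after Cre above). These counts follow from how the family was chosen. Over the 7 arrays the signal of Loxl4 ranged over 3.30 log2 units, more than in 99.8% of genes. The ranges of Lox (0.34), Loxl3 (0.34) and Loxl1 (0.15) were no wider than the median range of 0.35 over all genes.

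**Figure D2:**
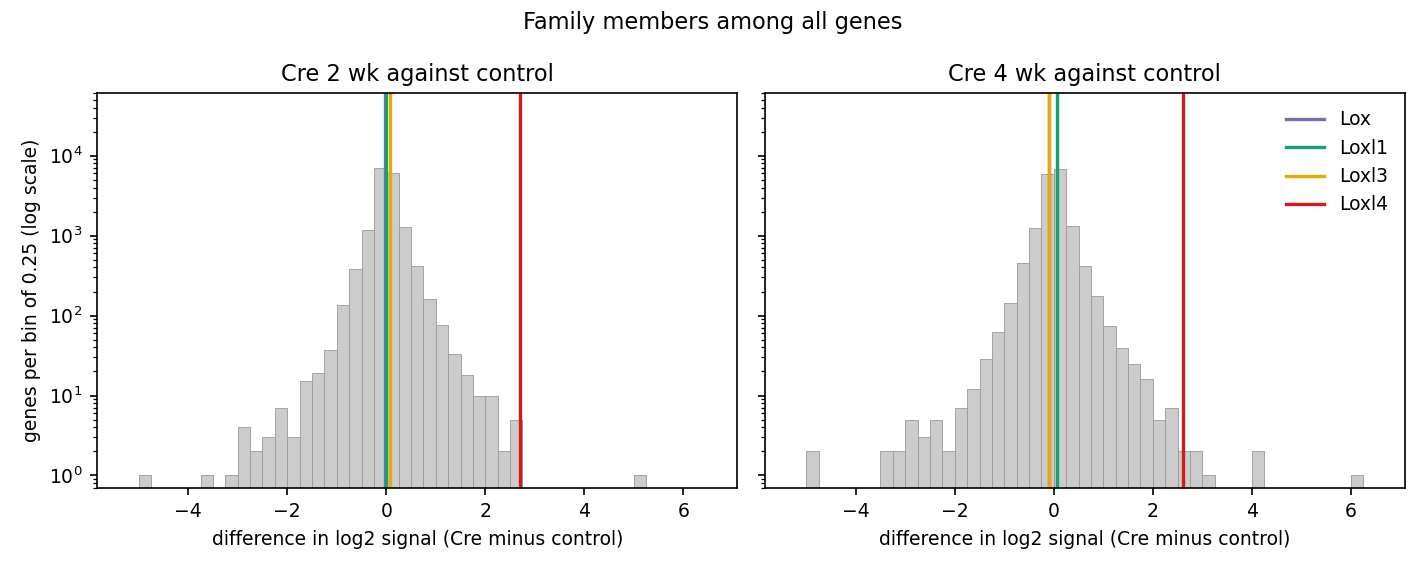
Numbers of genes (vertical axis, log scale) by difference in log2 signal, Cre minus control, in bins of 0.25, at 2 weeks (left) and 4 weeks (right), with lines at the family members. Loxl4 lies at 2.71 and 2.61, in the far right tail, and Lox, Loxl1 and Loxl3 lie between -0.09 and 0.08, where the lines of Lox and Loxl3 coincide at 4 weeks.

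The comparison between the times after Cre was not used to choose the family and could be tested. None of the members passed: 0 of 4 had an adjusted p under 0.05 in limma, and 0 of 4 an unadjusted p under 0.05. Over all genes 1 passed (0.00595%), the clock repressor gene Nr1d1, and 1250 of the 16819 had an unadjusted p under 0.05. Among only 4 members, a count of 0 does not set the family apart from all genes. The 4 week and 2 week arrays overlapped for 4 of 4 members and did not overlap for 26.6% of all genes. For Loxl4 the 4 week arrays read 8.79 and 9.05 and the 2 week arrays 8.50 and 9.54, so the 4 week arrays lay inside the range of the 2 week arrays. The difference, 4 weeks minus 2 weeks, was -0.10 (SE 0.33, adjusted p = 0.977, limma), with a 95% interval from -0.92 to 0.71, that is from 0.53-fold to 1.64-fold.

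The sign of this difference depended on single arrays: it was -0.62 without 2 week replicate 1, 0.42 without 2 week replicate 2, and 0.03 without 4 week replicate 1. For the other members the intervals were narrower. Lox differed by -0.06 (95% interval -0.36 to 0.24, adjusted p = 0.943, limma), Loxl1 by 0.07 (-0.08 to 0.23, adjusted p = 0.823) and Loxl3 by -0.16 (-0.37 to 0.04, adjusted p = 0.741). In these terms the Loxl4 level was lowest in the controls, and the 2 week and 4 week groups did not differ beyond their spread.

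The gene whose profile lay nearest to that of Loxl4 was Lpl, the lipoprotein lipase gene named in the title of the series. Nearness was the root mean square difference over the 7 arrays between the genes' log2 values, each taken minus its control mean. It was 0.19 for Lpl, which read 7.10, 7.36 and 7.18 in control livers, 9.11 and 10.80 at 2 weeks, then 9.54 and 9.84 at 4 weeks. As for Loxl4, 2 week replicate 1 was the lowest of the arrays after Cre and 2 week replicate 2 the highest. The next were Tubb2a, a beta tubulin (0.33), Spon2, a secreted matrix protein (0.35), and Ndrg1, a gene known for its response to low oxygen (0.41).

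Then followed the tight junction gene Cldn1 (0.48), the AP-1 subunit gene Jun (0.50), choline kinase Chka (0.55), the phosphatase Phospho1 (0.57), the imprinted noncoding RNA Rian (0.60) and the ubiquitin ligase Rnf125 (0.61). Of these 10 genes, 2 (Lpl and Spon2) put the arrays after Cre in the order of Loxl4, which 7.21% of all genes did. So did 10.1% of the genes called higher at 2 weeks and 9.47% of those at 4 weeks. The main component of variation placed these arrays in that order too. The ranking holds by construction genes that were higher after Cre by about as much, and all profiles share the same 7 arrays. By the same measure no gene lay within 0.1 of Loxl4, whereas 977 genes lay within 0.1 of Lox, 5208 of Loxl1 and 2232 of Loxl3. Most genes changed little, so these counts restate that the Loxl4 difference was large. Among the 3 nearest genes of each of Lox, Loxl1 and Loxl3, 0 had an adjusted p under 0.05 (limma) at 2 or 4 weeks. Of all genes, 5.93% did at 2 weeks and 9.77% at 4 weeks. These genes were picked for lying near a flat profile, so the count of 0 follows from the choice.

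**Figure D3:**
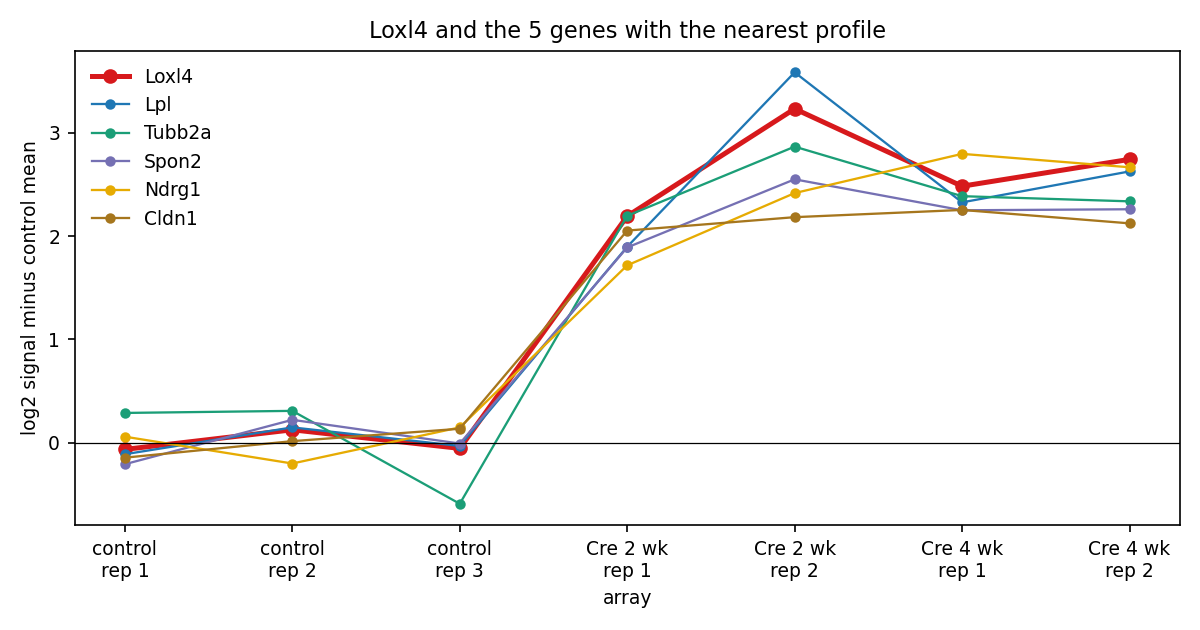
log2 signal minus the control mean (vertical axis) on each of the 7 arrays (horizontal axis) for Loxl4 and the 5 genes with the nearest profile. Loxl4 and Lpl are lowest among the arrays after Cre on 2 week replicate 1 and highest on 2 week replicate 2, where Lpl reads 10.80 and Loxl4 9.54 before the control mean is taken off.

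The nearest measured genes along the chromosome did not share the difference. On one side of Loxl4 lie R3hcc1l and Crtac1, on the other Pyroxd2, an oxidoreductase gene, and Hps1, a gene of lysosome-related organelles, in the order of the RefSeq table. R3hcc1l, the next gene in the table, read 7.86, 7.67 and 7.67 in control livers, 7.70 and 7.90 at 2 weeks, then 7.65 and 7.70 at 4 weeks. Its difference was 0.06 at 2 weeks (SE 0.09, adjusted p = 0.719, limma) and -0.06 at 4 weeks (SE 0.09, adjusted p = 0.741). Among the other 3, the difference farthest from 0 was that of Pyroxd2 at 4 weeks, at -0.28 (SE 0.15, adjusted p = 0.33).

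The genes of the oxidases' substrates did not pass the test at either time. Of 16 collagen and elastin genes, 0 were called by limma at 2 weeks (3 higher at an unadjusted p under 0.05) and 0 at 4 weeks (again 3 higher), and their median differences were 0.06 and 0.04, against 0.00 and 0.01 over all genes. Over all genes, an unadjusted p under 0.05 was met by 11.8% in the higher and 11.1% in the lower direction at 2 weeks, and by 12.9% and 11.9% at 4 weeks, and the unadjusted counts of every list are to be read against these shares. The fibrillar collagen gene Col1a1 read 8.24 and 8.32 at 2 weeks against 8.20, 8.10 and 8.05 in controls, a difference of 0.17 (SE 0.06, adjusted p = 0.176, limma). Its partner chain Col1a2 was at 0.18 (SE 0.09, adjusted p = 0.282). The largest value of the list at 2 weeks was that of Col3a1, at 0.54 (SE 0.15, adjusted p = 0.1), with 0.31 at 4 weeks. At 4 weeks the largest was that of Col4a1, at 0.35 (SE 0.09, adjusted p = 0.0691, limma), with 0.29 at 2 weeks. Elastin (Eln) was at 0.10 and 0.18.

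Among genes that modify, fold or process collagen, 1 of 23 measured members rose at each time and 0 fell (at 2 weeks 3.46% of all genes were called higher and 2.47% lower, at 4 weeks 5.15% and 4.62%). It was Tgm2, a transglutaminase that forms bonds between glutamine and lysine residues of matrix and other proteins. Tgm2 read 9.72, 9.71 and 9.67 in control livers, 10.67 and 11.76 at 2 weeks, then 11.04 and 11.26 at 4 weeks. No array after Cre overlapped with the controls, and the arrays after Cre stood in the same order as for Loxl4. That order was shared by 10.1% of the genes called higher at 2 weeks and 9.47% of those at 4 weeks. The main component of variation placed these arrays in the same order.

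Tgm2 rose 2.86-fold at 2 weeks (log2 1.52, SE 0.30, adjusted p = 0.0493, limma) and 2.75-fold at 4 weeks (log2 1.46, SE 0.30, adjusted p = 0.042). With single arrays left out the adjusted p reached 0.156 at 2 weeks and 0.195 at 4 weeks, and the log2 difference at 2 weeks was 2.06 without replicate 1 and 0.97 without replicate 2. The brightest genes of the list stayed short of the threshold: P4hb, a subunit of prolyl 4-hydroxylase, was at -0.12 and -0.17, and the proline isomerase gene Ppib at -0.08 and -0.15. The list's median was 0.05 at 2 weeks and 0.01 at 4 weeks. Of its 23 measured genes, 4 were higher and 0 lower at an unadjusted p under 0.05 (limma) at 2 weeks. At 4 weeks 2 were higher and 3 lower. Bmp1, the protease that cuts the propeptide of Lox, was at 0.28 and 0.20.

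Of 18 matrix proteins that build elastic fibres or bind the oxidases, 0 were called by limma at either time (2 higher at an unadjusted p under 0.05 at each), with medians of 0.08 and 0.04. Fibronectin (Fn1) read 13.25 and 13.20 at 2 weeks against 13.09, 13.06 and 12.98 in controls, a difference of 0.18 (SE 0.05, adjusted p = 0.111, limma). Fbln5, a fibulin that brings Loxl1 to elastin, was at 0.13 at 2 weeks and at 0.33 at 4 weeks (SE 0.08, adjusted p = 0.0665).

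Copper is the cofactor of these enzymes, and members of the copper list went both ways. Of 13, 1 rose and 0 fell at 2 weeks, and 1 rose and 1 fell at 4 weeks, with medians of -0.11 and -0.05 (all genes: 3.46% higher and 2.47% lower at 2 weeks, 5.15% and 4.62% at 4 weeks). At an unadjusted p under 0.05 (limma), 2 of the 13 were higher and 2 lower at 2 weeks (11.8% and 11.1% of all genes). At 4 weeks 4 were higher and 4 lower (12.9% and 11.9% of all genes). These unadjusted shares lay above those of all genes, and whether the list differs from all genes was not tested. Steap3, a metalloreductase that acts on iron and copper, read 8.32, 8.25 and 8.39 in control livers, 9.21 and 9.53 at 2 weeks, then 9.40 and 9.68 at 4 weeks. Its arrays after Cre all lay above the controls, and it rose 2.07-fold at 2 weeks (adjusted p = 0.0175, limma) and 2.33-fold at 4 weeks (adjusted p = 0.00963). Cox17, a chaperone that carries copper to cytochrome oxidase, fell by 0.41 log2 units at 4 weeks (SE 0.08, adjusted p = 0.0418).

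The copper importer Slc31a1 was at -0.11 and -0.05, and the metalloreductase Steap4 at -0.35 and -0.61 (SE 0.14, adjusted p = 0.203 and 0.0506, limma). ATP7A, the pump that loads copper onto secreted enzymes such as lysyl oxidases, and ATOX1, its chaperone, were singled out after their values were seen. Atp7a read 7.49, 7.23 and 7.38 in control livers, 7.98 and 8.66 at 2 weeks, then 8.19 and 8.21 at 4 weeks. All arrays after Cre lay above the controls, but the differences of 0.95 at 2 weeks (SE 0.20, adjusted p = 0.0557, limma) and 0.83 at 4 weeks (SE 0.20, adjusted p = 0.0598) did not pass. Atox1 was at -0.87 at 2 weeks (SE 0.20, adjusted p = 0.0671) and at -0.53 at 4 weeks (SE 0.20, adjusted p = 0.185).

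Of 5 other amine oxidases, which act on free amines and not on collagen, 0 rose and 1 fell at 2 weeks, and 0 were called by limma at 4 weeks (1 lower at an unadjusted p under 0.05). Of all genes, 2.47% were called lower at 2 weeks, and 11.9% were lower at an unadjusted p under 0.05 at 4 weeks. At that cut 2 of the 5 were lower at 2 weeks, where 11.1% of all genes were. Maoa, a flavin enzyme of the mitochondrial outer membrane that breaks down serotonin and noradrenaline, read 6.01 and 5.79 at 2 weeks against 6.97, 6.83 and 7.0 in controls, and the groups did not overlap. It fell by 1.03 log2 units (SE 0.15, adjusted p = 0.0251, limma). At 4 weeks it read 6.57 and 6.12, a difference of -0.59 that did not pass. Maob, its close relative, was at -0.13 at 2 weeks and 0.24 at 4 weeks. The list's median was -0.13 at 2 weeks and 0.03 at 4 weeks.

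Of 17 genes reported to act upstream of lysyl oxidases, in the TGF-beta, hypoxia and Snai/Twist/Zeb pathways, 1 rose and 0 fell at each time. Of all genes, 3.46% were called higher at 2 weeks and 5.15% at 4 weeks. The list's share of calls was near the background, but it rests on 1 gene. Tgfbr1, the type I receptor for TGF-beta, read 8.84, 8.94 and 8.99 in control livers, 9.53 and 9.61 at 2 weeks, then 9.62 and 9.82 at 4 weeks. Its groups did not overlap, and it rose 1.56-fold at 2 weeks (SE 0.08 on the log2 scale, adjusted p = 0.0188, limma) and 1.74-fold at 4 weeks (SE 0.08, adjusted p = 0.009). At an unadjusted p under 0.05, 4 of the 17 genes were higher at 2 weeks (11.8% of all genes) and 6 of 17 at 4 weeks (12.9%). At that cut 0 were lower at either time, and the unadjusted shares lay above those of all genes. The list's median was 0.04 at 2 weeks and 0.12 at 4 weeks, against 0.00 and 0.01 over all genes. Whether the list differs from all genes was not tested. Epas1, a hypoxia-inducible transcription factor, was at 0.12 at 2 weeks and 0.17 at 4 weeks, and Smad4, the common partner of the TGF-beta signal transducers, at -0.05 and 0.00.

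**Figure D4:**
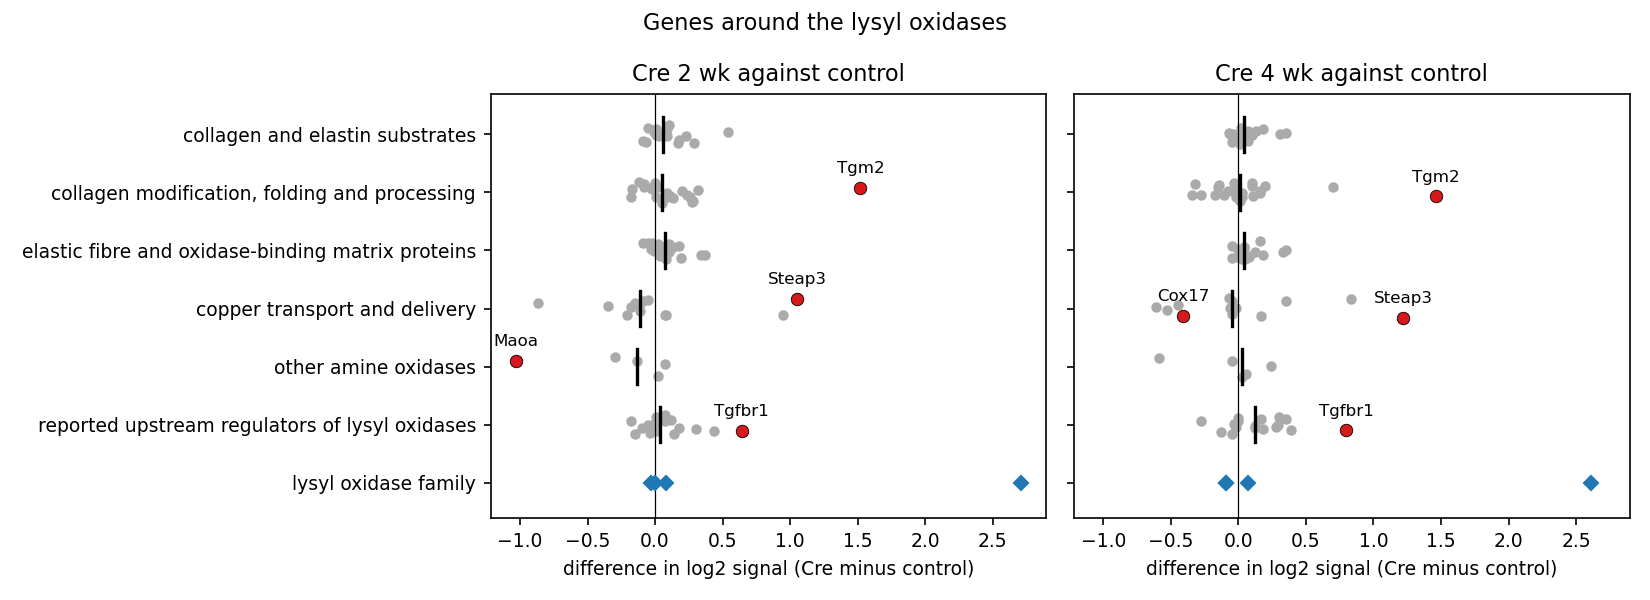
Difference in log2 signal, Cre minus control (horizontal axis), at 2 weeks (left) and 4 weeks (right) for each measured gene of the 6 related lists and the 4 measured lysyl oxidases (blue diamonds, where Lox and Loxl3 coincide at 4 weeks). Red points passed an adjusted p under 0.05 (limma), grey points did not, black bars are list medians, and Loxl4 at 2.71 and 2.61 lies to the right of every gene in these lists, the next being Tgm2 at 1.52 and 1.46.

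The calls in these lists were sensitive to single arrays. With each of the 7 arrays left out in turn, Steap3 and Tgfbr1 kept an adjusted p under 0.05 (limma) in 3 of 7 fits each at 2 weeks and in 5 of 7 each at 4 weeks, Tgm2 in 2 of 7 at both times, Maoa in 3 of 7 at 2 weeks, and Cox17 in 0 of 7 at 4 weeks. None of these genes changed sign. Over all genes, the number called at 2 weeks was 41 without control replicate 3 and 2168 without 2 week replicate 1, and at 4 weeks 63 without 4 week replicate 1.

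The summed signal of markers of the cells that make most liver collagen was higher after Cre, with no single marker passing the test. Summed on the linear scale, the 15 stellate cell and fibroblast markers gave 5907 to 6201 in control livers, 6763 to 7402 at 2 weeks and 6418 to 7018 at 4 weeks, so the arrays after Cre lay above the controls. Of the single markers, 0 of 15 were called by limma at either time (4 higher at an unadjusted p under 0.05 at 2 weeks, where 11.8% of all genes were, and 2 at 4 weeks, where 12.9% were), and the median differences were 0.13 and 0.04. Much of the shift in the sum came from its brightest gene, Dcn, a collagen-binding proteoglycan, whose linear signal averaged 2663 in controls, 3243 at 2 weeks and 3104 at 4 weeks and overlapped with the controls at 4 weeks. Without Dcn, a check added after the data were seen, the other 14 markers summed to 3372 to 3431 in controls, 3665 to 4013 at 2 weeks and 3541 to 3687 at 4 weeks. Reln, the next brightest marker, was at 0.33 and 0.16, and its 4 week arrays lay on either side of the controls. The retinoid-storage gene Lrat, a defining marker of stellate cells, was at 0.02 and 0.14. The contractile gene Acta2, which marks activated ones, was at 0.69 (SE 0.24, adjusted p = 0.169, limma) and 0.08. Acta2 was the highest of the 15 at 2 weeks, where Gfap was the lowest, at -0.09. At 4 weeks the highest was Pdgfrb, at 0.29, and the lowest Lum, at -0.16. The part of these cells in the Loxl4 difference was not tested.

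The summed signal of 9 hepatocyte markers was 132891 to 136475 in control livers, 122151 to 125216 at 2 weeks and 122446 to 125211 at 4 weeks, below the controls on each array after Cre, with 0 of 9 called at either time (limma, 2 and 3 lower at an unadjusted p under 0.05). The brightest, Alb, averaged 23171 in controls, 22776 at 2 weeks and 23478 at 4 weeks. Without Alb the other 8 averaged 111573, 100908 and 100350. Alb itself was at -0.02 and 0.02, so leaving it out cannot show how many genes made the sum lower. Apoa1 was at -0.09 at both times and Ttr at -0.09 and -0.11. Serpina1d was at -0.48 (SE 0.10, adjusted p = 0.0583, limma) and -0.45. The list's median difference was -0.09 at both times, and the lowest was that of Tat, at -0.64 and -0.60. The bile duct sum, over 7 markers, was 666 to 698 in controls, 724 to 830 at 2 weeks and 763 to 776 at 4 weeks, and Sox9, a transcription factor of bile duct and progenitor cells, was the 1 of 7 that rose, at 4 weeks (1.35-fold, adjusted p = 0.0401). Without Sox9 the other 6 gave 469 to 477 in controls, 471 to 574 at 2 weeks and 493 to 494 at 4 weeks, so that 2 weeks overlapped with the controls. The 10 endothelial markers summed to 5636 to 5799 in controls, 5095 to 6076 at 2 weeks and 6624 to 7520 at 4 weeks, with 1 of 10, the sinusoidal lectin gene Clec4g, called higher at 4 weeks (1.51-fold, adjusted p = 0.0438). Without Clec4g the other 9 gave 3562 to 3875 in controls, 3236 to 4262 at 2 weeks and 3944 to 4109 at 4 weeks. At an unadjusted p under 0.05 (limma), 2 of the 7 bile duct markers were higher at 2 weeks and 1 at 4 weeks. Of the 10 endothelial markers, 0 were higher at 2 weeks and 1 at 4 weeks. The macrophage sum over 10 markers, 3040 to 3343 in controls, 2691 to 3455 at 2 weeks and 2760 to 3529 at 4 weeks, overlapped between all groups, and 0 of 10 were called (1 lower at an unadjusted p under 0.05 at 2 weeks, 1 each way at 4 weeks). For 8 lymphocyte and neutrophil markers the sums were 485 to 509 in controls, 516 to 517 at 2 weeks and 500 to 519 at 4 weeks, with 0 called by limma (0 and 1 at an unadjusted p under 0.05). Neither Sox9 nor Clec4g kept its call in more than 1 of the 7 fits with an array left out. Whether any of these shifts bears on Loxl4 was not tested.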

How the data were processed

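Whole liver RNA was hybridised to Affymetrix whole-transcript arrays, 1 array per sample (7 in all). The deposited log2 signals, 1 per probe set, were used as the authors made them. The submitters' processing notes list GCOS 1.4 but give it no role. How background correction, summarisation and normalization were done is not given in the sources used. Values ran from 3.15 to 14.72. No detection calls or scan dates were used, and for arrays their number limits the precision.

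Of the 21093 probe sets in the table the counts by annotation were 17709 with 1 gene symbol, 187 with more than 1 and 3197 without a name. Matched on gene number, 17648 were found in RefSeq (GRCm38.p6), and 0 symbols changed. Of 16819 genes, 463 had several probe sets. One model with the 3 groups was fitted to all genes with limma 3.58.1 (R 4.3.3; lmFit, eBayes; 4 residual and 1.69 prior degrees of freedom). Tests were two-sided, with Benjamini-Hochberg adjustment over all genes, and an adjusted p under 0.05 counted as a call. Tables were made with Python 3.11.15, pandas 2.3.3 and scipy 1.17.1.

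The family, the 12 gene lists (151 of 168 entries measured) and the tests were chosen with earlier results of these data known. Genes named were the members, Dicer1, up to 3 called and 2 of the brightest uncalled genes of each list, the 10 profiles nearest to Loxl4 and 2 measured neighbours on each side. Further genes (Col3a1, Col4a1, Eln, Bmp1, Atp7a, Atox1, Lrat, Acta2, Gfap, Lum, Pdgfrb, Apoa1, Serpina1d, Tat) were picked after their values were seen.

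The labels call arrays of a group biological replicates. Alternatives were quantile normalization, a filter on dim genes, fits of 2 groups, a trended prior, a replicate block, the mean of all probe sets, and leaving out each array.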

Additional observations from a re-analysis of the deposited data

How the results depend on the processing

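Without single arrays, the Loxl4 difference from control lay between 2.19 and 3.23 at 2 weeks and between 2.47 and 2.74 at 4 weeks. It stayed above 0 under every alternative run. The family was chosen for this rise, and every array after Cre lay above the controls, so this is no test of it. The difference of Loxl4 between 4 and 2 weeks ran from -0.62 to 0.42, that of Lox from -0.12 to 0.00, that of Loxl1 from 0.00 to 0.14 and that of Loxl3 from -0.27 to -0.06, none with an adjusted p under 0.198 (limma). The number of genes called ran from 41 to 2168 at 2 weeks, from 63 to 1948 at 4 weeks and was 0 in each of the 7 fits for 4 against 2 weeks (1066 to 2550 genes at an unadjusted p under 0.05). At 2 weeks each of the 7 arrays moved the count by over 1.5 times: it was 190, 127 and 41 without control replicates 1, 2 and 3, 2168 and 329 without 2 week replicates 1 and 2, and 276 without either 4 week array. At 4 weeks the count was 457, 312 and 294 without the controls in that order, and 63 and 94 without the 4 week arrays, against 997 and 1643 genes with all arrays. These fits have fewer samples and degrees of freedom. In fits of only the 2 groups compared, 276 genes were called at 2 weeks, 1948 at 4 weeks and 0 between the times (1014 at an unadjusted p under 0.05). With a replicate block, which leaves 2 residual degrees of freedom, 0 genes were called at 2 weeks, 2 at 4 weeks and 0 between the times (3160, 3454 and 1025 at an unadjusted p under 0.05). The labels give no reason for pairing, and same-numbered arrays of different groups correlated in their deviations from the group means at -0.0651 to 0.111, so the numbers were not taken to pair the arrays. With the block, the Loxl4 differences from control were 2.68 and 2.58. Lox has no value with the dimmest 25% of genes left out, and Loxl2 has none under any setting. Values near the dim end of the scale, such as those of Lox, limit what can be seen, since no signal over background was used here.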
